A study of Mus musculus with 8 samples.

Results

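Small nucleolar RNAs (snoRNAs) are short nuclear RNAs that guide the chemical modification of ribosomal and other RNAs. Those with a C/D box, whose mouse gene symbols start with Snord, pair with fibrillarin, Nop56, Nop58 and Snu13 and direct 2'-O-methylation. Those with an H/ACA box, whose symbols start with Snora, pair with Dkc1, Nhp2, Nop10 and Gar1 and direct the change of uridine to pseudouridine. In mammals most of them are cut out of the introns of a host gene, often a gene for a ribosomal or nucleolar protein or a non-coding RNA, so their amount depends on transcription of the host, on splicing and on the stability of the finished particle. A few serve in the cleavage or folding of the ribosomal RNA precursor.

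The members were chosen by symbol alone: every gene named Snord or Snora to which a probe set assigned exactly 1 symbol, with the mean taken where a gene had several probe sets. This gave 73 genes, 47 with a C/D box and 26 with an H/ACA box, of 22180 named genes on the array. They came from 75 probe sets, and 2 genes, Snora19 and Snora33, had 2 each. All 73 matched an Entrez identifier in RefSeq (GRCm38.p6 annotation), and 72 are of type snoRNA there. That annotation holds 133 Snord and Snora symbols, so the members are a subset of the mouse genes, 47 of 94 for the C/D box and 26 of 39 for the H/ACA box. The annotated lengths run from 48 to 221 nucleotides for the C/D box genes (median 68) and from 56 to 205 for the H/ACA box genes (median 118.5).

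The RNA came from total brain of mice immunized with myelin oligodendrocyte glycoprotein (MOG), a model of multiple sclerosis, and taken on day 14, the time of maximal disease per the labels. All mice were MOG-immunized, including the controls. Wild-type mice were recognised by a black coat. Yellow mice were C57BL/6Je/e, written e/e from here on, and lack a working melanocortin receptor gene Mc1r. Treated mice of either genotype had 5 µg of NDP-MSH, a long-acting analog of alpha-melanocyte-stimulating hormone, injected intravenously on days 8, 10 and 12, and control mice had phosphate-buffered saline (PBS). Each of the 4 combinations of genotype and injection was measured on 2 Affymetrix whole-transcript arrays, numbered 1 and 2. That the 2 arrays stand for separate animals is stated nowhere, so the p-values reflect only how far these samples spread. The Y-linked gene Uty lay at -0.14 and 2.32 on e/e PBS 1 and 2. The pituitary hormone gene Prl lay at 6.97 and -0.22 on wild-type NDP-MSH 1 and 2. In those groups the spread is therefore not only that of repeated arrays of 1 sample. How much of it is technical elsewhere is unknown.

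Values are log2 signals from which each probe set's median over the 8 arrays had been subtracted. A value of 0.5 therefore lies 0.5 above that gene's own median, levels of different genes cannot be set against each other, and a high group pushes the other groups of that gene below 0. The base is not stated and was taken as 2. How far the signal had lain above the low end could still be read from the rounding step of the deposited numbers. It placed 29 of 47 C/D box genes at a signal of 8 or above and 17 at 4 to 8, and 10 and 14 of 26 H/ACA box genes, with the others mixed or unresolved. The RNA was cleaned up on columns of a kit, and the labels do not say how much RNA as short as snoRNAs was kept. A probe set inside an intron can read the finished snoRNA or the precursor of its host. In RNA from whole tissue, fewer cells of a type and less RNA per cell cannot be told apart.

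Marker lists for other tissue parts and cells, each given by its median, differed between arrays. The 11 measured genes of the brain list all had a signal of 8 or above. Cerebellar markers (9 of 12 measured) lay at -1.91 and -1.69 on both wild-type NDP-MSH arrays, whereas the other 6 ranged from -0.05 to 0.30. Anterior pituitary markers (7 of 8 measured) lay at 2.31 on wild-type NDP-MSH 1 and between -0.07 and 0.05 elsewhere. Interferon gamma-induced genes (13 of 15 measured) lay at -1.71 on e/e PBS 1, -1.93 on e/e NDP-MSH 1 and -2.00 on e/e NDP-MSH 2, and between -0.29 and 0.70 on the other 5. T cell markers (7 of 10 measured) ranged from -0.80 on e/e NDP-MSH 2 to 0.79 on wild-type NDP-MSH 1. Sex-linked genes (4 of 5 measured) lay at 2.06 on e/e PBS 2 and at 2.64 and 2.68 on the e/e NDP-MSH arrays, with the other arrays between -0.12 and 0.01. That median joins genes that moved apart. The Y-linked Eif2s3y, Kdm5d and Uty lay at -0.14 to -0.01 on e/e PBS 1 and at 2.04 to 2.32 on e/e PBS 2. On the e/e NDP-MSH arrays they lay at 2.49 to 3.31. Xist, transcribed from the inactive X chromosome, lay at 0.56 on e/e PBS 1 and -0.82 on e/e PBS 2. It lay at -4.46 and -4.56 on the e/e NDP-MSH arrays.

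C/D box genes as a class were highest on the wild-type NDP-MSH arrays and lowest on the e/e NDP-MSH arrays. Its median over 47 genes was -0.01 and 0.08 on wild-type PBS 1 and 2, 0.15 and 0.26 on wild-type NDP-MSH 1 and 2, -0.01 and -0.09 on e/e PBS 1 and 2, and -0.23 and -0.15 on e/e NDP-MSH 1 and 2. Neither NDP-MSH group overlapped its PBS group in this median, and the treated arrays lay above the controls in wild-type and below them in e/e mice. The number of C/D box genes above their own median was 20 and 35 on the wild-type PBS arrays, 40 and 36 with NDP-MSH, 21 and 16 on the e/e PBS arrays, and 4 and 14 with NDP-MSH. The median of all 22180 genes stayed between -0.01 and 0.01 on all 8 arrays. Their upper quartile, however, was 0.12 on wild-type NDP-MSH 2 and between 0.04 and 0.07 on the other arrays. After quantile normalization the C/D box median on wild-type NDP-MSH 2 was 0.16 rather than 0.26, so its size depended on the normalization.

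The H/ACA box class shared only the low e/e NDP-MSH values. Its median over 26 genes was 0.12 and 0.02 on wild-type PBS 1 and 2, 0.01 and 0.06 on wild-type NDP-MSH 1 and 2, 0.08 and -0.02 on e/e PBS 1 and 2, and -0.18 and -0.15 on e/e NDP-MSH 1 and 2. The wild-type groups overlapped, whereas both e/e NDP-MSH arrays lay below the other 6. The C/D box median minus the H/ACA box median was 0.17 ± 0.04 (SD, n = 2) in wild-type NDP-MSH, against -0.04 ± 0.14 in wild-type PBS, -0.08 ± 0.02 in e/e PBS and -0.02 ± 0.03 in e/e NDP-MSH. The class difference exceeded the SD between arrays in wild-type NDP-MSH and in e/e PBS, with opposite signs. These medians are descriptions without a test, since 2 arrays against 2 cannot give a permutation p below 0.333 and the members were proposed with earlier results known.

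**Figure D1:**
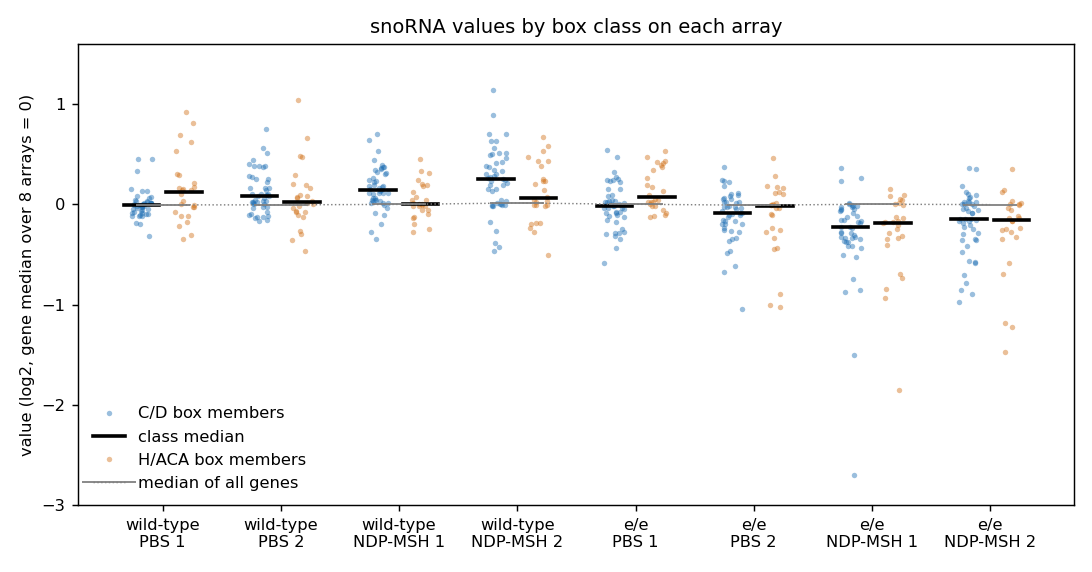
Value (log2, each gene's median over the 8 arrays set to 0) of every snoRNA gene on each array, blue for the 47 C/D box and orange for the 26 H/ACA box genes; black bars are class medians and grey marks the median of all genes. The C/D box median runs from -0.23 on e/e NDP-MSH 1 to 0.26 on wild-type NDP-MSH 2, and single points reach -2.70.

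The first comparison of the series asks what NDP-MSH changed in wild-type brain. The C/D box class leaned up and the H/ACA box class did not: 32 C/D box genes were higher and 15 lower after NDP-MSH, with a median difference of 0.12, and 13 H/ACA box genes were higher and 13 lower, with a median of 0.00. The median over all genes was 0.02. No member passed an adjusted p of 0.05 (limma, moderated test with Benjamini-Hochberg adjustment over all genes), where 0.176% of all genes did. At an unadjusted p of 0.05, 9 C/D box genes (19.1%) were higher and 1 (2.13%) lower, against 6.72% and 5.6% of all genes. The H/ACA box class had 1 higher and 1 lower (3.85% each). Both treated arrays lay above both controls for 20 C/D box genes (42.6%) and below for 4 (8.51%), and for 4 and 4 H/ACA box genes (15.4% each), where 25.3% of all genes were so placed above and 18.9% below. Upward, the C/D box share was therefore above the background, and downward it was under it. The H/ACA box shares rest on 4 genes each way and are not read as different from the background. Leaving out arrays moved the C/D box median to 0.21 without wild-type PBS 2 or without wild-type NDP-MSH 1, and to 0.06 without wild-type NDP-MSH 2, and the H/ACA box median ran from -0.04 to 0.06 over the left-out arrays. The cerebellar and pituitary marker differences given above coincide with this contrast, and their part in it was not tested.

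Snord70, a C/D box snoRNA within Nop58, had the smallest p of the class. It lay at -0.11 and 0.08 with PBS and at 0.70 and 0.89 with NDP-MSH, and at 0.25, -0.16, -0.08 and -0.16 on the e/e arrays (PBS 1, PBS 2, NDP-MSH 1, NDP-MSH 2). The wild-type NDP-MSH arrays thus stood above the other 6. The difference was 0.81 ± 0.14 (SE), with an adjusted p of 0.13 in limma and a range of 0.0527 to 0.622 over its 18 settings. Snord47, within the non-coding gene Gas5, lay at -0.18 and 0.01 with PBS and at 0.37 and 0.56 with NDP-MSH, a difference of 0.55 ± 0.15 (limma, adjusted p = 0.249). Snord92 lay at -0.02 and 0.02 against 0.53 and 0.22, a difference of 0.37 ± 0.11 (limma, adjusted p = 0.29). Against this lean, Snord53 lay at 0.46 and 0.28 with PBS and at -0.34 and -0.27 with NDP-MSH, a difference of -0.67 ± 0.14 (limma, adjusted p = 0.185). For each of these the treated and control arrays did not overlap, which picking by smallest p favours. Of all genes 25.3% lay apart upward and 18.9% downward. Snord70 and Snord47 had a signal of 8 or above, and Snord92 and Snord53 one of 4 to 8.

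Among H/ACA box genes the smallest p belonged to one that was lower. Snora75, within the nucleolin gene Ncl, lay at 0.16 and 0.48 with PBS and at -0.25 and -0.23 with NDP-MSH, a difference of -0.56 ± 0.12 (limma, adjusted p = 0.193). Snora21 was higher, at 0.45 and 0.47 against 0.11 and -0.11, with a difference of 0.46 ± 0.20. Snora30 was lower by 0.35 on the log2 scale, at -0.09 and -0.27 against 0.30 and 0.03. Snora47 lay at 0.12 and 0.24 against -0.17 and 0.08, a difference of 0.22 ± 0.12. The NDP-MSH and PBS arrays were apart for all 4, in both directions, and adjusted p for the last 3 was 0.405 to 0.468 (limma). Here too the genes were picked by smallest p from the same values, with 25.3% of all genes apart upward and 18.9% downward.

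In e/e mice, without a working Mc1r, both classes lay lower after NDP-MSH. Of 47 C/D box genes 38 were lower and 9 higher, with a median of -0.17, and of 26 H/ACA box genes 23 were lower and 3 higher, with a median of -0.22, beside 0.01 over all genes. No member passed the adjusted threshold in limma, nor did any other gene (0.0%). At an unadjusted p of 0.05 there were 3 lower C/D box genes (6.38%), 5 lower H/ACA box genes (19.2%) and none higher in either class, against 1.78% lower and 1.78% higher of all genes. Both treated arrays lay below both controls for 14 C/D box (29.8%) and 9 H/ACA box genes (34.6%), with 14.3% of all genes so placed. They lay above the controls for 1 (2.13%) and 2 (7.69%), with 16.0% of all genes. With e/e PBS 2 left out the H/ACA box median was -0.38, and with e/e PBS 1 left out the C/D box median was -0.10. Among the H/ACA box genes with a signal of 8 or above the median was -0.47 and none was higher. Y-linked genes were high on both treated arrays and on e/e PBS 2 but not on e/e PBS 1, and Xist was lowest on the treated arrays. Interferon gamma-induced genes were low on both treated arrays and on e/e PBS 1. The part of either in the snoRNA values was not tested.

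Snora44 and Snora16a, H/ACA box snoRNAs of the non-coding gene Snhg12, were among the lower ones. Snora44 lay at 0.14 and -0.44 on e/e PBS 1 and 2 and at -1.85 and -0.58 on e/e NDP-MSH 1 and 2, a difference of -1.06 ± 0.41. Snora16a lay at -0.02 and -0.26 against -0.93 and -0.35, a difference of -0.50 ± 0.18. In both, e/e NDP-MSH 1 carried most of the difference: without it the differences were -0.43 and -0.21. Snora75 lay at 0.37 and 0.13 against -0.13 and -0.13, a difference of -0.38 ± 0.12, so it was lower after NDP-MSH in both genotypes. Snora62, within the ribosomal protein gene Rpsa, lay at 0.10 and 0.00 against -0.18 and -0.24, a difference of -0.26 ± 0.11. Adjusted p was 1.0 for each of them in limma.

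The C/D box genes of smallest p in e/e mice were Snord69, Snord43, Snord73b and Snord89. Snord69, within the nucleolar GTPase gene Gnl3, lay at -0.03 and -0.27 with PBS and at -0.42 and -0.56 with NDP-MSH, a difference of -0.34 ± 0.12. Snord43, within Rpl3, lay at -0.08 and -0.04 against -0.37 and -0.20, a difference of -0.23 ± 0.09. Snord73b, within Rps3a1, lay at -0.15 and -0.01 against -1.50 and -0.35, a difference of -0.84 ± 0.33 that was -0.27 without e/e NDP-MSH 1. Snord89 lay at 0.15 and -0.16 against -0.37 and -0.24, a difference of -0.30 ± 0.13. The treated arrays were below both controls for all 4, and adjusted p was 1.0 in limma. Picking by smallest p favours such a placement, which 14.3% of all genes had.

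The difference between the genotypes' responses was tested directly as wild-type effect minus e/e effect. It was positive for 41 of 47 C/D box genes (median 0.26) and for 19 of 26 H/ACA box genes (median 0.28), beside a median of 0.01 over all genes. Positive values at an unadjusted p of 0.05 came to 10 C/D box (21.3%) and 2 H/ACA box genes (7.69%), with 3.67% of all genes. Negative ones came to 1 C/D box gene (2.13%) and 0 H/ACA box genes, with 4.05% of all genes. The adjusted threshold in limma was passed by 0 members and by 0.0% of all genes. The similar medians had different sources: the C/D box value joined a wild-type median of 0.12 to an e/e median of -0.17, and the H/ACA box value joined 0.00 to -0.22. Over left-out arrays the H/ACA box median ran from 0.09, without e/e PBS 1, to 0.41, without wild-type NDP-MSH 1. It was 0.14 without e/e NDP-MSH 1 and 0.18 without wild-type NDP-MSH 2. That of the C/D box stayed between 0.23 and 0.35. The cerebellar and pituitary markers of the wild-type arrays, and the sex-linked and interferon gamma-induced genes of the e/e arrays, differ along this contrast. Their part in it was not tested.

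Snord70 had the smallest p here too, with 0.98 ± 0.20 (limma, adjusted p = 0.392), and Snord53 had -0.89 ± 0.19 (adjusted p = 0.416). Both differences came mostly from the wild-type arrays already described, since the e/e effects were -0.17 ± 0.14 and 0.22 ± 0.14. Snord47 gave 0.68 ± 0.21 and Snord82 0.34 ± 0.10. In the H/ACA box class Snora44 gave 1.32 ± 0.58, Snora21 0.85 ± 0.28, Snora47 0.43 ± 0.16 and Snora2b -0.26 ± 0.14. Without e/e NDP-MSH 1 the value for Snora44 was 0.68, and without wild-type PBS 1 that for Snora2b was -0.14. Snora21 lay at 0.17 and -0.23 on the e/e PBS arrays and at -0.14 and -0.69 on the e/e NDP-MSH arrays, which overlap, so its e/e difference of -0.38 ± 0.20 was within that scatter. Snora2b lay at 0.22 and -0.02 with PBS and at 0.00 and -0.00 with NDP-MSH in wild-type mice, and at -0.12 and -0.00 against 0.06 and 0.14 in e/e mice.

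Some members were placed above both controls in wild-type and below both controls in e/e mice. They were 5 C/D box genes, Snord110, Snord43, Snord49b, Snord82 and Snord91a, and 2 H/ACA box genes, Snora41 and Snora47, and they were named after their values were seen. Of all genes 3.17% were so placed. The opposite placement, lower in wild-type and higher in e/e, held for 0 members and 3.26% of all genes. Snord91a, within the ribosome assembly gene Tsr1, had the largest difference between the effects among these, at -0.32 and 0.02 against 0.18 and 0.50 in wild-type and 0.24 and -0.02 against -0.04 and -0.03 in e/e mice. Snord49b lay at -0.03 and 0.04 against 0.16 and 0.52, and at 0.03 and -0.19 against -0.29 and -0.22. In e/e mice the nearest arrays of the groups almost touched for both genes, closer than arrays of 1 group stood to each other under PBS.

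**Figure D2:**
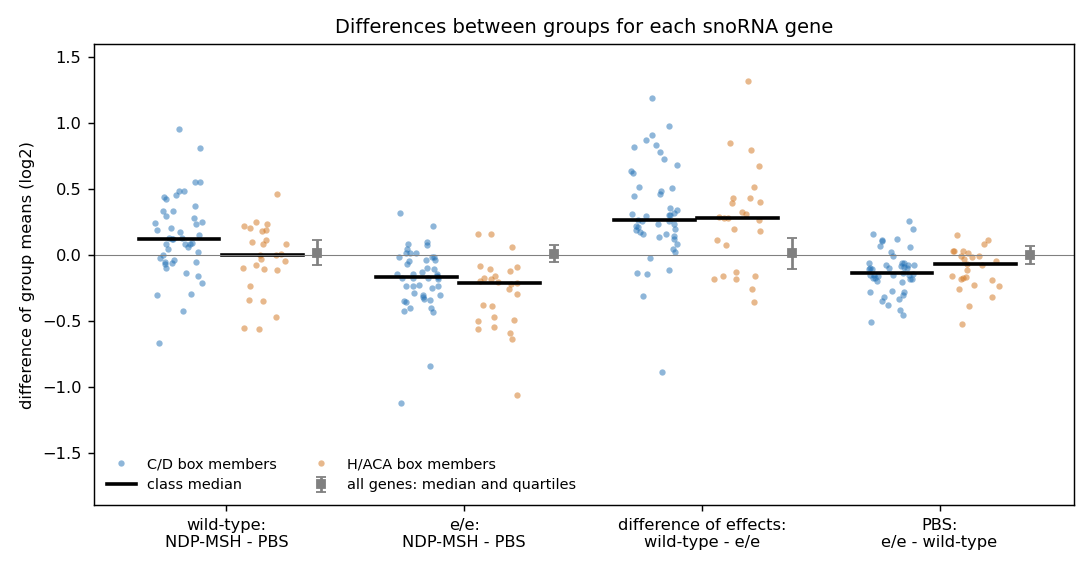
Difference of group means (log2) of each snoRNA gene in the 4 comparisons, blue for C/D box and orange for H/ACA box genes; black bars are class medians, and grey squares with bars are the median and quartiles of all genes. The class medians part in the wild-type comparison (0.12 and 0.00) and both lie below 0 in the e/e comparison (-0.17 and -0.22).

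Without treatment, C/D box genes lay lower in e/e than in wild-type mice. Under PBS 38 of 47 were lower and 9 higher (median -0.13), and 19 of 26 H/ACA box genes were lower and 7 higher (median -0.07), beside a median of 0.00 over all genes. At an unadjusted p of 0.05, 1 C/D box gene (2.13%) was lower and no member of either class was higher, against 2.56% and 2.35% of all genes, so these calls do not stand out. The adjusted threshold in limma was passed by 0 members and 0.0% of all genes. The groups were apart downward for 12 C/D box (25.5%) and 2 H/ACA box genes (7.69%), with 16.7% of all genes, and upward for 2 (4.26%) and 1 (3.85%), with 17.4%. With e/e PBS 2 left out they were -0.06 and 0.04, so the H/ACA box value changed sign. Without wild-type PBS 2 they were -0.09 and -0.14, and the H/ACA box value was -0.17 when e/e PBS 1 and -0.05 when wild-type PBS 1 was left out. The wild-type PBS arrays also serve the wild-type treatment comparison, and the e/e PBS arrays the e/e one, so these comparisons are not independent of each other. Y-linked genes were high on e/e PBS 2 only, and interferon gamma-induced genes low on e/e PBS 1 only, among these PBS arrays. The part of either here was not tested.

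Snord53 had the smallest p in this comparison, at 0.46 and 0.28 in wild-type and -0.13 and 0.03 in e/e mice, a difference of -0.42 ± 0.14 (limma, adjusted p = 0.971). Only e/e NDP-MSH 2, at 0.37, lay as high as the wild-type PBS arrays. Snord65 lay at 0.34 and 0.11 against -0.11 and -0.36, a difference of -0.46 ± 0.20. Snord35a, within Rpl13a, lay at -0.01 and 0.29 against -0.34 and 0.01, so its groups overlapped. For the H/ACA box, Snora41 lay at -0.08 and -0.07 against 0.04 and 0.12, a difference of 0.15 ± 0.08. Snora16a was at 0.17 and 0.08 against -0.02 and -0.26.

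The members include 5 that are best known for cleavage and maturation of the ribosomal RNA precursor: Snord118, Snord13, Snord22, Snora73a and Snora73b. After NDP-MSH 5 of 5 had a difference below 0 in e/e mice, where 61 of all 73 members did, and 4 of 5 in wild-type mice, where 28 of 73 did. None passed the adjusted threshold (limma). Snord118, the U8 RNA needed for the large-subunit RNAs, varied little: its 8 values ran from -0.12 to 0.14. Its differences were -0.16 ± 0.08 in wild-type and -0.02 ± 0.08 in e/e mice. Its signal was 4 to 8, so the narrow range does not by itself show that the RNA was steady. Snord13, the U13 RNA of small-subunit maturation, with a signal of 8 or above, was the opposite case. It lay at -0.09, 0.75, -0.19 and 0.43 on the wild-type arrays, at -0.58 and 0.23 on the e/e PBS arrays, and at -2.70 and 0.09 on e/e NDP-MSH 1 and 2. A single array therefore set its e/e difference of -1.12 ± 0.80, which was 0.27 without that array. Snora73a and Snora73b, copies of the U17 RNA that acts in cleavage of the small-subunit precursor, had e/e differences of -0.59 ± 0.29 and -0.64 ± 0.32 and wild-type differences of -0.07 ± 0.29 and -0.24 ± 0.32. Without e/e NDP-MSH 1 the e/e differences were -0.23 and -0.31. Snord22, the U22 RNA, had an e/e difference of -0.40 ± 0.34, which was 0.07 without e/e PBS 1, and a wild-type difference of 0.06 ± 0.34. Among the methylation guides, Snord17 had an e/e difference of -0.35 ± 0.25, which was 0.06 without e/e PBS 1, and a wild-type difference of 0.44 ± 0.25. Snord35a and Snord35b had e/e differences of 0.08 ± 0.14 and -0.02 ± 0.25 and wild-type differences of -0.06 ± 0.14 and 0.12 ± 0.25. Snord14a, Snord14e, Snord32a, Snord33 and Snord34 shared their probe sets with a host gene and are not members. No gene of the imprinted families was a member, and Snord3a was not one either.

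Arrays of the same group lay further apart in snoRNAs than in the median gene. The median distance between the 2 arrays of a group was 0.18, 0.21, 0.27 and 0.28 for C/D box genes in the PBS and NDP-MSH groups of wild-type and then of e/e mice. It was 0.26, 0.22, 0.27 and 0.27 for H/ACA box genes and between 0.09 and 0.12 for all genes in the 4 groups. Another class of small RNA genes, the 483 microRNA genes, lay between 0.10 and 0.12, and the 45 measured host genes of the members between 0.08 and 0.12. Wide distances were not particular to snoRNAs: the 5 small Cajal body RNA genes, their close relatives, had median distances of 0.09, 0.32, 0.39 and 0.41 in the same order of groups, above both snoRNA classes in all but wild-type PBS. Of the 222 genes with the widest distances in e/e NDP-MSH (the top 1%), 22 were members, 12 with a C/D box and 10 with an H/ACA box. The corresponding number of members was 10 in wild-type PBS, of which 8 had an H/ACA box, 3 in wild-type NDP-MSH and 5 in e/e PBS. The distance of 2.79 for Snord13 in e/e NDP-MSH was the widest of all 22180 genes in that group. After it, the widest in the C/D box class were 1.58 for Snord72 and 1.23 for Snord71, and in the H/ACA box class 1.56 for Snora34, 1.44 for Snora15 and 1.37 for Snora28.

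**Figure D3:**
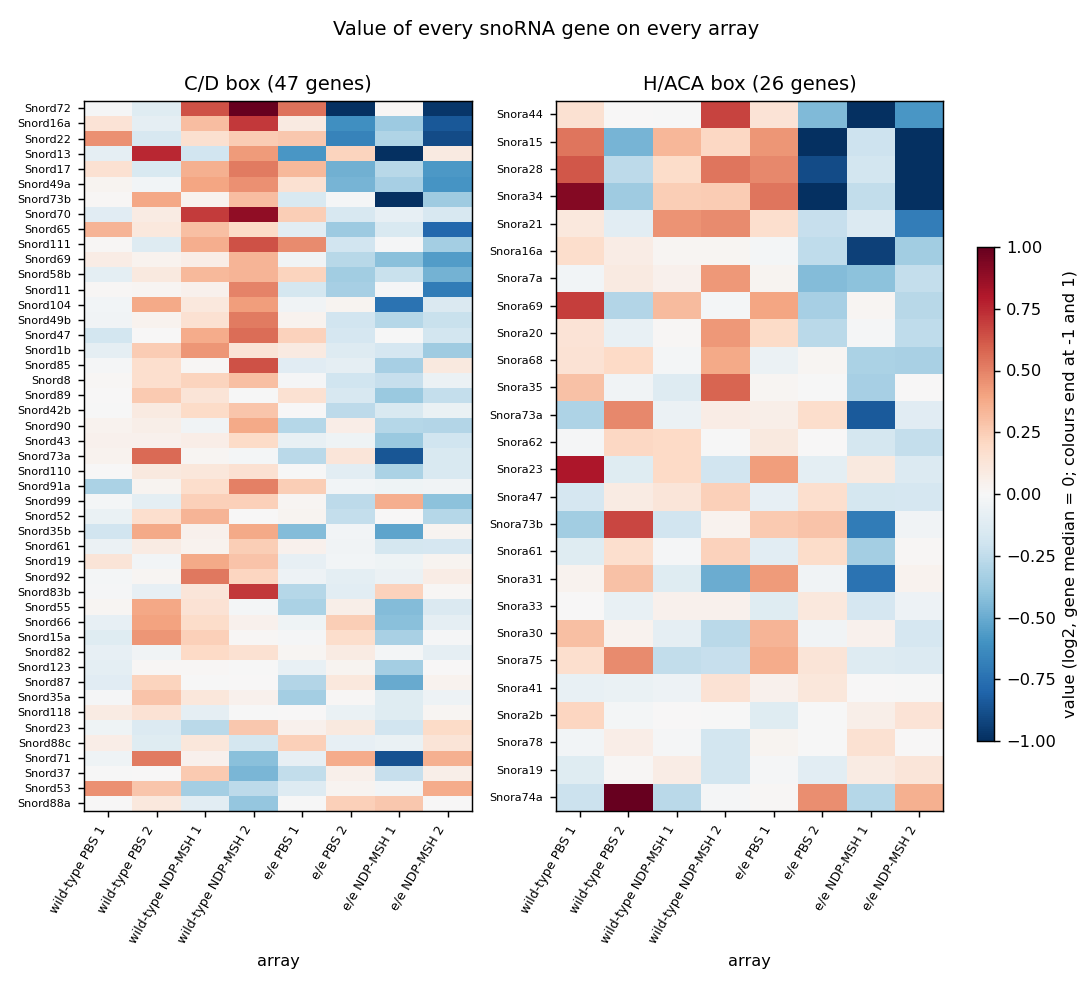
Value (log2, gene median set to 0, colours ending at -1 and 1) of all 47 C/D box and 26 H/ACA box genes on the 8 arrays, each class ordered by its weight on the first component of the 73 genes. Red in the wild-type NDP-MSH columns and blue in the e/e NDP-MSH columns is strongest among the upper C/D box genes, and the upper H/ACA box rows turn blue on e/e PBS 2 as well as e/e NDP-MSH 2.

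Members varied together over the arrays to different degrees in the box classes. Over the 8 arrays the median Pearson correlation between pairs was 0.42 within the C/D box class, 0.14 within the H/ACA box class and 0.23 between the classes. The same was 0.06 within the microRNA genes and 0.08 within the host genes. The points of each correlation are the same 8 arrays, whose group differences and array effects all enter, so it is given as a description. In a principal component analysis of the 73 genes the first component held 46.9% of the variance. It ran from 0.29 and 0.52 on the wild-type NDP-MSH arrays to -0.35 on e/e PBS 2 and -0.42 and -0.52 on the e/e NDP-MSH arrays. Wild-type PBS 1 and e/e PBS 1, at 0.21 and 0.20, lay near wild-type NDP-MSH 1, and wild-type PBS 2 lay at 0.06. The second held 33.5% and set e/e NDP-MSH 1, at 0.73, apart from wild-type PBS 2, at -0.46, and e/e PBS 2, at -0.34. The genes were centred but not scaled, so those of wide scatter weighed most, such as Snord13 with a weight of -2.57 on the second component.

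A pair of profiles took in genes of both box classes. Snora34, the H/ACA box gene of widest scatter, lay at 0.92 and -0.35 on wild-type PBS 1 and 2, at 0.24 and 0.26 on the wild-type NDP-MSH arrays, at 0.54 and -1.03 on e/e PBS 1 and 2, and at -0.24 and -1.18 on e/e NDP-MSH 1 and 2. The genes most like it over the 8 arrays were Snord22 (Pearson r = 0.981), Snora15 (0.975), Snora28 (0.974) and Snora69 (0.904). Snora15 lay at 0.54, -0.46, 0.33, 0.21, 0.44, -1.0, -0.21 and -1.47 on the arrays in the same order. In this profile array 2 was below array 1 in wild-type PBS and in both e/e groups, and for Snora34 the arrays of wild-type PBS and of e/e PBS stood 1.28 and 1.56 apart, further than any of its group means. These genes lie within different hosts: Kansl2 for Snora34, Snhg1 for Snord22, Cct6a for Snora15, Eif5 for Snora28 and Rpl39 for Snora69. In all, 7 C/D box and 6 H/ACA box genes had r of at least 0.7 with Snora34.

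The other profile was that of Snora73b, at -0.35 and 0.66 on wild-type PBS 1 and 2, -0.19 and 0.04 on the wild-type NDP-MSH arrays, 0.26 and 0.28 on the e/e PBS arrays, and -0.70 and -0.04 on e/e NDP-MSH 1 and 2. It was high on wild-type PBS 2 and low on e/e NDP-MSH 1. Snora73a followed it with r = 0.958, Snora74a with 0.843, Snord66 with 0.836 and Snord15a with 0.821. Snora73a and Snora73b are near-identical copies within 1 host, so their probe sets may read each other's RNA. Snord13 was also among the 8 most alike, with r = 0.755. At r of at least 0.7 this profile took in 9 C/D box and 4 H/ACA box genes.

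**Figure D4:**
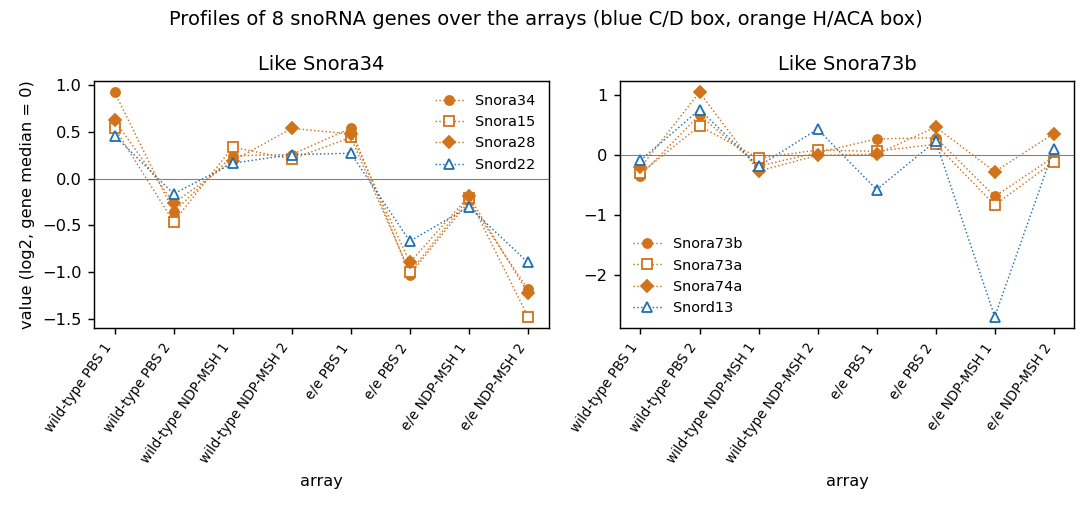
Values (log2, gene median set to 0) over the 8 arrays of 4 genes with the profile of Snora34 and 4 with that of Snora73b, blue for C/D box and orange for H/ACA box genes; the dotted lines only join points of a gene. The left-hand genes are lowest on array 2 of both e/e groups, and on the right Snora73a, Snora73b, Snora74a and Snord13 are lowest on e/e NDP-MSH 1.

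Host genes were taken as the annotated genes whose span covers the snoRNA, without regard to strand, which the gene table does not give. A host was found for 44 C/D box genes (33 protein-coding, 11 long non-coding) and for all 26 H/ACA box genes (19 protein-coding, 7 long non-coding). Snord118, Snord13 and Snord89 lay in none. The host itself was measured for 35 and 24 members, 59 pairs with 45 hosts. Members followed their hosts weakly: the median correlation over the 8 arrays was -0.03 for C/D box pairs, from -0.64 to 0.81, and 0.25 for H/ACA box pairs, from -0.51 to 0.86. The closest pairs were Snora7a with Rpl32 (0.859), Snord49b with the non-coding gene 2410006H16Rik (0.806) and Snord110 with Nop56 (0.765). Member and host differed in the same direction in 37 of 59 pairs in wild-type and 33 of 59 in e/e mice. The median size of the difference was 0.19 for members and 0.09 for their hosts in wild-type, and 0.20 and 0.06 in e/e mice, wider in the members than in the transcripts that contain them. Arrays of 1 group also lay further apart for members than for hosts, as given above. Scatter alone widens such sizes and lowers correlations, and its part here was not tested.

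Members of 1 host allow a closer look, since they start in a single precursor. There were 18 such pairs in 11 hosts, with a median correlation of 0.57, and 12 pairs were above 0. The closest were Snora73a and Snora73b of Snhg3 (0.958), Snora16a and Snora44 of Snhg12 (0.941), Snord73a and Snord73b of Rps3a1 (0.905), and Snord49a and Snord49b of 2410006H16Rik (0.889). The pairs that parted most were Snord53 and Snord92 of Wdr43 (-0.556) and Snora75 and Snord82 of Ncl (-0.454). Wdr43 is a nucleolar protein of small-subunit assembly and nucleolin an abundant nucleolar RNA-binding protein. To show the shared start of these pairs and of Snord11 and Snord70, the 250 bases before the annotated start of each host are printed, from RefSeq, build GRCm38.p6, 5' to 3' on the host's strand. Ncl is read from the minus strand (chr1:86359456-86359705), Wdr43 from the plus strand (chr17:71615965-71616214) and Nop58 from the plus strand (chr1:59684756-59685005).
Ncl: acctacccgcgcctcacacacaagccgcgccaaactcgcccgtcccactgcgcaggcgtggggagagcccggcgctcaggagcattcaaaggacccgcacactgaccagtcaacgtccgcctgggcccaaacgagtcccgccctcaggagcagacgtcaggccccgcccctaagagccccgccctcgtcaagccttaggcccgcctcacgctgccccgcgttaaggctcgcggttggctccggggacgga
Wdr43: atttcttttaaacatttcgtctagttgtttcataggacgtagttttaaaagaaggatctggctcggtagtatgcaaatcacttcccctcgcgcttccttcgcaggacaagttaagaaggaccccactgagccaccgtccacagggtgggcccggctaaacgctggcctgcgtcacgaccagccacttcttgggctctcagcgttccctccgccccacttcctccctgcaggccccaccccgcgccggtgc
Nop58: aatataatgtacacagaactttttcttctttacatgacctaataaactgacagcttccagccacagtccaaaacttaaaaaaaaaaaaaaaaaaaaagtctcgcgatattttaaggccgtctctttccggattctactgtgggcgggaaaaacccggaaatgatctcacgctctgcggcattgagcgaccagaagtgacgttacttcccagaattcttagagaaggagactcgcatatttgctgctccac
Motif matches, had there been any, would stand in capitals: neither CACGTG, the E box read by Myc-type factors, nor TATAAA (both strands searched) was in these 3 windows. A CACGTG lies in the first 50 bases after the start of Wdr43. In windows of 250 bases before and 50 after the start, CACGTG was in 11 of 49 promoters of the host genes (22.4%) and in 2349 of all 32851 (7.15%), and TATAAA in 12 (24.5%) and 4473 (13.6%). In the 250 bases before the start alone, the shares for CACGTG were 14.3% and 6.02%, and for TATAAA 18.4% and 12.4%. These are shares of sequence matches and no measure of binding.

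Within Wdr43, Snord53 and Snord92 changed places on the wild-type arrays. Both had a signal of 4 to 8, so neither entered the setting limited to signals of 8 or more. Snord53 minus Snord92 was 0.48 and 0.26 with PBS and -0.87 and -0.48 with NDP-MSH, and between -0.08 and 0.29 on the 4 e/e arrays. Wdr43 itself lay between -0.08 and 0.16 on all 8. Ncl showed a similar exchange between classes. Snora75 minus Snord82 was 0.25 and 0.51 with PBS and -0.44 and -0.39 with NDP-MSH in wild-type mice, and 0.35 and 0.05 against -0.10 and -0.05 in e/e mice. Snord82 lay at -0.09 and -0.04 against 0.20 and 0.15 in wild-type mice, a difference of 0.24 ± 0.07 (limma, adjusted p = 0.292). In wild-type mice Ncl was lower with NDP-MSH by 0.27 on the log2 scale (SE 0.10, limma, adjusted p = 0.338), in the direction of Snora75. In e/e mice Ncl differed by 0.06 ± 0.10, whereas Snora75 differed by -0.38 ± 0.12. The values before centring are unknown, so these are exchanges of relative position and not of abundance.

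Within Nop58, both members were higher with NDP-MSH in wild-type mice, by 0.81 for Snord70 and by 0.25 ± 0.23 for Snord11, and the host by 0.08 ± 0.10. Snord11 lay at 0.01 and 0.02 against 0.05 and 0.49, so 1 array made most of its difference. Snhg12 held 4 members. Snora16a, Snora44 and Snora61 were each lowest on e/e NDP-MSH 1, at -0.93, -1.85 and -0.34, whereas the C/D box member Snord99 was highest there, at 0.37, and Snhg12 itself lay at -0.03. In Kansl2, Snora34 spanned 0.92 to -1.18 while Snora2b ran from -0.12 to 0.22, with r = -0.009 between them.

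**Figure D5:**
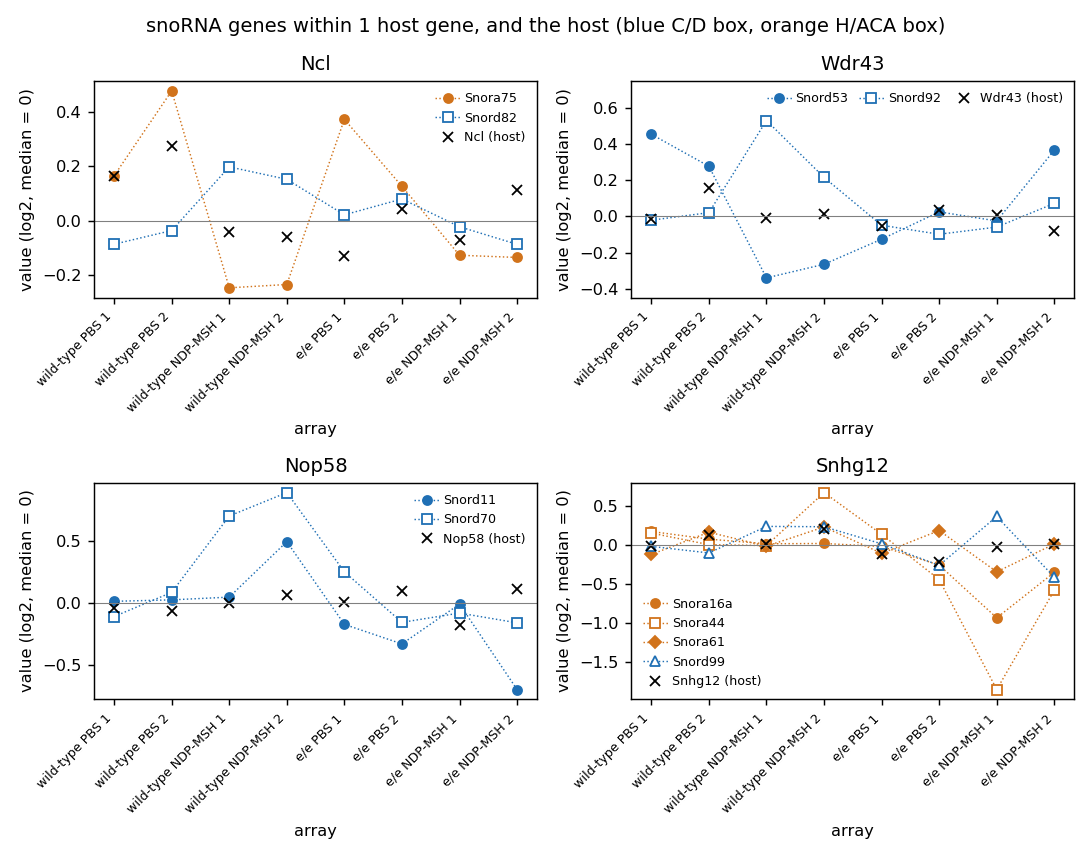
Values (log2, gene median set to 0) over the 8 arrays of the snoRNA genes within Ncl, Wdr43, Nop58 and Snhg12 (blue C/D box, orange H/ACA box) and of the host itself (crosses). Snord53 and Snord92 trade places between the wild-type PBS and NDP-MSH arrays while Wdr43 stays between -0.08 and 0.16, and within Snhg12 only Snord99 is up on e/e NDP-MSH 1.

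Of the genes for the proteins of the snoRNA particles, none passed the adjusted threshold in any comparison (limma). Of the C/D box core, Nop56, Nop58 and Snu13 were measured, and 3 of 3 were higher after NDP-MSH in wild-type mice (median 0.08) and 1 of 3 in e/e mice (median -0.08). Nop56 had the smallest p, with 0.16 ± 0.10 in wild-type, -0.25 ± 0.10 in e/e mice and a difference between the effects of 0.41 ± 0.14 (adjusted p = 0.577). Of the H/ACA box core, 3 of 4 were higher in wild-type (median 0.11) and 4 of 4 in e/e mice (median 0.04), where the H/ACA box RNAs were mostly lower. Nhp2 led in wild-type with 0.22 ± 0.10. Of 16 assembly and maturation genes 11 were higher in wild-type (median 0.04) and 8 in e/e mice (median -0.00). The highest of them were Pih1d1, Ruvbl1 and Znhit3, partners in assembly of the C/D box particle. Their wild-type differences were 0.34 ± 0.13, 0.31 ± 0.12 and 0.31 ± 0.15. The list did not move together: 5 of the 16 were lower, among them Ncl (-0.27 ± 0.10, the smallest p) and Znhit6 (-0.25 ± 0.11). Rpap3 and Ruvbl2 differed by 0.01 ± 0.08 and 0.01 ± 0.09.

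Other gene groups near the snoRNAs were described in the same way, and 0 genes of any of them passed the adjusted threshold in limma. The 5 small Cajal body RNA genes, relatives that guide modification of spliceosomal RNAs, were 4 higher and 1 lower in wild-type (median 0.19) and 5 of 5 lower in e/e mice (median -0.25). Scarna2 gave the smallest p for the difference between the effects, 0.52 ± 0.23. Of 483 microRNA genes 173 were higher and 310 lower in wild-type (median -0.04), and in e/e mice 221 were higher and 262 lower (median -0.01), so they did not lean as the C/D box genes did. The 19 non-coding host genes had medians of -0.03 and -0.06. Of 69 cytosolic ribosomal protein genes, many of which contain snoRNAs, 54 were higher in wild-type (median 0.13) and 27 in e/e mice (median -0.02).

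Probe sets that named several genes were kept out of the members and looked at separately. For the 17 C/D box sets among them, the array medians were 0.04 and -0.00 on wild-type PBS 1 and 2, 0.07 and 0.16 with NDP-MSH, 0.00 and -0.03 on e/e PBS 1 and 2, and -0.12 and -0.09 with NDP-MSH. This was the same order of groups as in the 47 members, on a smaller scale. The 10 H/ACA box sets lay at -0.01 and 0.17, 0.03 and 0.04, 0.00 and -0.02, and -0.15 and -0.03 in that order, again lowest with NDP-MSH in e/e mice. The 16 probe sets of the imprinted Snord116 cluster, which name several copies each, were nearly flat, with medians between -0.05 and 0.07 over the 8 arrays and no more than 0.02 between the lowest and highest set on an array. All 16 name the same genes, among them Gm26504, and read almost alike, so they do not stand for 16 separate snoRNAs. Their small scatter therefore cannot be set against that of the 47 members. Snora33, with 2 probe sets, showed how far sets of 1 gene can part: on e/e NDP-MSH 1 they read -0.06 and -0.28, and the pair for Snora19 read 0.08 and 0.08.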

How the data were processed

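Brain RNA of 8 samples was measured on 1 array each. The deposited log2 values (base assumed) were processed by the authors, and each of 33793 probe sets was found centred on its median (within 5e-07). How the authors summarised and normalized them is not given in the sources used here. 23521 probe sets carried 1 symbol in the platform annotation, 1814 several and 8458 none, and rows were averaged per symbol.

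limma 3.58.1 (R 4.3.3) was fitted with 1 coefficient per group (4 residual, 3.45 prior degrees of freedom), two-sided, with Benjamini-Hochberg adjustment over 22180 genes at 0.05. In simulated wild-type data it called 0.0%, 36.0%, 80.0% and 100.0% of genes changed by 0.25, 0.5, 1 and 2 (log2), and 0.0227% of 21980 others. The changed genes were drawn from all genes, each with its own spread. Members scattered more between arrays of a group than the median gene, so these shares may be too high for them. The number of arrays limits the precision.

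The members and lists were chosen with earlier results of these data known. Named genes are the 4 of smallest p per comparison and class, the 3 of widest scatter per class, and snoRNAs of ribosomal RNA processing; others were named after their values were seen, and a few named by the rule are not reported here. The rounding step of the values gave the signal class (tolerance 0.05 of a step). A planned C box search was not run, since snoRNA sequences were not used here. Alternatives were the replicate block, quantile normalization, centring, array weights, only the arrays compared, single probe sets, genes with 1 probe set, a signal filter, families and left-out arrays. Slide and scan date were not used here. matplotlib 3.10.9 (Python 3.11.15) drew the figures.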

Additional observations from a re-analysis of the deposited data

How the results depend on the processing

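No member of either class passed the adjusted threshold in limma under any alternative. The smallest adjusted p was 0.0527 in wild-type mice (Snord70, when limited to signals of 8 or more), 0.531 in e/e mice, 0.195 for the difference of effects and 0.389 under PBS. The 32 values of named genes kept their direction and side of the threshold in 262 of 262 alternatives. They kept their direction in 256 of 256 with an array left out. These counts were largely fixed beforehand and do not measure robustness. The genes were mostly picked by smallest p, and where groups were apart, leaving out an array cannot turn the sign. Some settings cannot move an estimate: Snord70 in wild-type mice stayed at 0.81 with the replicate block, array weights or any e/e array left out. When limited to signals of 8 or more, the H/ACA box median in e/e mice was -0.47 and the share of its genes that were higher 0.0%, and the median difference of effects was 0.34 for the C/D box and 0.43 for the H/ACA box. Quantile normalization gave 0.21 for the H/ACA box median of the difference of effects. It gave 0.16 for the C/D box median on wild-type NDP-MSH 2, against 0.26 without it. The C/D box median difference in wild-type mice was then 0.08, against 0.12.

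Leaving out 1 array at a time gave wild-type medians of 0.062 to 0.21 (C/D box) and -0.039 to 0.058 (H/ACA box). In e/e mice the medians were -0.21 to -0.10 and -0.38 to -0.17, with 19.1% to 38.3% and 11.5% to 38.5% of genes higher. For the difference of effects they were 0.23 to 0.35 and 0.086 to 0.41. For e/e against wild-type under PBS they were -0.17 to -0.057 and -0.17 to 0.045, with 17.0% to 38.3% and 26.9% to 61.5% higher. The H/ACA box sign under PBS and in wild-type mice thus depended on single arrays. The cause was not tested.

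With the replicate number as a replicate block, 0 members passed, and the medians were 0.12 and -0.17 for the C/D box and 0.00 and -0.22 for the H/ACA box in wild-type and e/e mice. The numbers were not shown to pair the samples: deviations of same-numbered arrays correlated at -0.10 between the wild-type groups and 0.18 between the e/e groups. Base, levels and retention of short RNA are unknown, and same-host or near-identical members are not independent. In the simulated wild-type comparison 36.0% of changes of 0.5 (log2) were called. Its changed genes were drawn from all genes, so that share may be too high for the members.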
